A study of Canis lupus familiaris with 27 samples.

Results

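The Wnt ligands, their Frizzled receptors, the secreted SFRP and DKK antagonists and the core of the beta-catenin branch were followed in 27 canine simple mammary carcinomas, 1 Affymetrix Canine Genome 2.0 array per tumor. A gene belonged to the set if its symbol in the platform annotation began with WNT, FZD, SFRP or DKK followed by a digit, or was LRP5, LRP6, CTNNB1, AXIN1, AXIN2 or TCF7L2. This gave 40 of the 15115 genes with a single symbol, namely 17 WNT, 9 FZD, 4 SFRP and 4 DKK genes and the 6 others, and for each gene the probe set with the highest mean signal over the tumors was used. Together they have 65 of the 42860 probe sets that are not array controls. WNT2B, WNT5A and FZD1 are not named by a single-symbol probe set of that annotation and were not analysed here.

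Wnt proteins are lipid-modified secreted ligands that bind a Frizzled receptor together with LRP5 or LRP6. In the canonical branch this stops a complex built on AXIN from marking beta-catenin for destruction, so that beta-catenin reaches the nucleus and acts with TCF/LEF factors on target genes. Other ligands signal through Frizzled receptors without beta-catenin, on cell polarity and movement. SFRP proteins bind Wnts outside the cell and DKK proteins bind the LRP co-receptors. In the mouse mammary gland the pathway acts in branching and in maintenance of basal stem cells, and Wnt1 was first found there as a gene activated by a tumor virus.

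The metastatic group comprised 13 carcinomas of dogs with affected lymph nodes at resection (6 of grade II and 7 of grade III, dogs of 9 to 16 years, tumors of 0.5 to 5 cm). The non-metastatic group comprised 14 carcinomas without lymph node metastases (5 of grade II and 9 of grade III, dogs of 9 to 15 years, tumors of 2 to 15 cm), which the study selected for a larger diameter. Non-metastatic tumor 1 is of grade II by its label, which was used, and of grade III in the description by the study. All 27 were labelled negative for the estrogen receptor alpha and had been macrodissected for high tumor cellularity. Only primary tumors were measured, not the metastases, and tumors are numbered within their group in the order of the deposit.

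Some properties of the tumors moved with lymph node status. Names ending in T were given to 11 of 13 metastatic and to 0 of 14 non-metastatic samples, which the labels do not explain. The upper quartile of an array lay between 7.88 and 8.00 in metastatic and between 7.53 and 7.93 on the log2 scale in non-metastatic tumors. Probe sets at the 3′ and 5′ ends of GAPDH, a sign of RNA quality, differed by 1.84 ± 0.32 in metastatic and by 1.32 ± 0.42 in non-metastatic tumors (log2, SD), whereas a second GAPDH pair differed by 0.07 in both. The same measure for actin went the other way, with 1.04 ± 0.41 in metastatic and 1.26 ± 0.54 in non-metastatic tumors. A second actin pair differed by −0.49 in metastatic and by −0.44 in non-metastatic tumors. All 5 measured proliferation markers were higher in metastatic tumors (median log2 difference 2.27), 4 of 11 markers of myoepithelium and smooth muscle were lower and none higher (median −0.66), and 13 of 13 fibroblast markers had a positive difference without passing the test (median 0.77). The part of proliferation and of RNA quality in the results that follow was not tested. Of 12 measured luminal markers 2 were lower in metastatic tumors, GATA3 (−2.92, limma adjusted p = 0.0172) and FOXA1 (−2.36, adjusted p = 0.0296). None was higher, although 9 of the 12 had a positive difference (median 0.33). Of 4 measured basal markers 1 was lower, KRT17 (−2.88, adjusted p = 0.0398), and none higher. EPCAM was at 11.56 or more in all tumors. Non-metastatic tumor 12, from the animal that later developed lung metastases according to the series text, had the lowest values of KRT7 (4.22, against at least 8.47 in the others), and the lowest of KRT8 (8.99, against at least 10.20), KRT18 (5.69, against at least 6.50), CDH1 (3.81, against at least 4.71) and EPCAM (11.56, against at least 12.48). Group differences that depend on it are also given without it, but correlations were not computed again without it alone. In such bulk samples, fewer cells of a type and less RNA per cell cannot be told apart.

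Frizzled-6 and Frizzled-2 were higher and the transcription factor TCF7L2 was lower in metastatic carcinomas, and a weak signal of SFRP5 was higher. These were the only members past an adjusted p of 0.05 from limma (Benjamini-Hochberg over 15115 genes). The 3 higher genes of 40 stand against 10.4% of all genes called higher, and the 1 lower gene against 6.83% called lower. In either direction 4 of 40 members were called, beside 17.3% of all genes. Over the 40 genes the median log2 difference was −0.0075, beside −0.0019 over all genes, and 17 of 40 differences were positive. This sign count depends on the scaling and was 28 after a second quantile normalization and 30 after centring each array on its median. At an unadjusted p of 0.05, 6 members were higher and 4 lower, beside 18.6% and 15% of all genes. With a limma adjusted p under 0.001 and a fold over 1.7 none of the 40 passed in either direction, beside 0.503% of genes higher and 0.304% lower. The filter of the study used q-values from another method, so its list was not rebuilt here. Over the 65 probe sets of the members, 5 were called higher (FZD2, both of FZD6, 1 of SFRP2 and SFRP5) and 4 lower (1 each of FZD7 and WNT11 and 2 of TCF7L2), beside 9.76% and 11.4% of all probe sets.

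**Figure D1:**
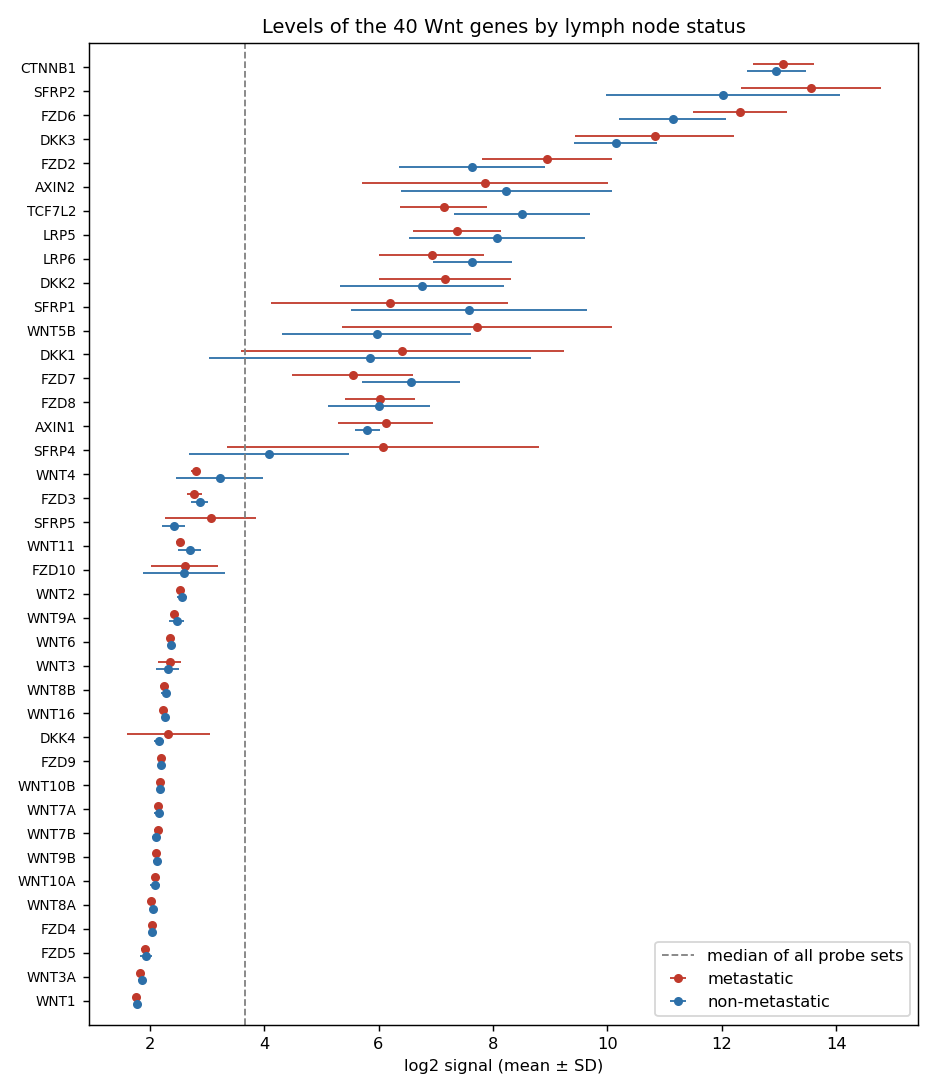
Mean log2 signal ± SD of each of the 40 Wnt genes (rows, ordered by mean) in 13 metastatic (red, upper) and 14 non-metastatic carcinomas (blue, lower). The dashed line is the median of all probe sets, 3.66, and 23 genes including 16 of the 17 WNT ligands have means left of it.

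Probe sets differ in how strongly they bind, so signals of different genes are not amounts of RNA that can be ranked, but a position relative to the whole array can be stated. The median of all values was 3.66. Of the 17 WNT ligands, 16 had means between 1.77 and 3.02, and 3 of their 432 single values exceeded 3.66. Their differences between metastatic and non-metastatic tumors ran between −0.42 and 0.03, and none passed the test. All 3 exceeding values were of WNT4, a ligand of side branching in the mouse mammary gland, in non-metastatic tumors 5, 6 and 14 (4.44, 5.10 and 4.12). WNT4 lay between 2.71 and 2.97 with a median of 2.82 in metastatic tumors, and between 2.70 and 5.10 with a median of 2.90 in non-metastatic tumors (log2 difference −0.42, standard error (SE) 0.21, limma adjusted p = 0.157). WNT11, a ligand of the beta-catenin-independent branch, lay below the median of the non-metastatic group in 13 of the 13 metastatic tumors, but by only −0.17 (adjusted p = 0.057). Its second brightest probe set differed by 0.32 in the other direction, which rested on a value of 6.69 in metastatic tumor 7. The other metastatic tumors lay between 2.04 and 2.24 there, beside 2.07 to 2.32 in non-metastatic tumors. A low signal does not show that a transcript was absent.

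WNT5B was the ligand with a clear signal. WNT5B, a ligand known for beta-catenin-independent signalling, ran between 4.28 and 10.96 with a median of 8.36 in metastatic tumors, and between 3.67 and 9.36 with a median of 5.85 in non-metastatic tumors. The groups overlapped over most of their range, although 3 metastatic tumors (1, 2 and 6) exceeded every non-metastatic tumor and 4 others (3, 4, 10 and 12) lay below the non-metastatic median. The means were 7.72 ± 2.36 in metastatic carcinomas and 5.97 ± 1.65 in non-metastatic carcinomas (SD over 13 and 14 tumors). The difference of 1.76 (95% interval 0.19 to 3.32) did not pass the test across all genes (limma adjusted p = 0.107).

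Among the receptors, FZD6, a Frizzled known for hair and tissue polarity in the mouse, gave a strong signal in every tumor. It ran between 10.98 and 13.74 with a median of 12.12 in metastatic tumors, and between 9.88 and 13.07 with a median of 10.96 in non-metastatic tumors. Every metastatic tumor exceeded the non-metastatic median, while the groups overlapped, with non-metastatic tumors 4, 8 and 13 (12.92, 12.08 and 13.07) apart from the rest of their group (at most 11.23). FZD6 averaged 12.32 ± 0.82 in metastatic carcinomas and 11.14 ± 0.93 in non-metastatic carcinomas (SD over 13 and 14 tumors), which differ by 1.17 on the log2 scale (SE 0.33, limma adjusted p = 0.0171), or 2.26-fold. Its other probe set correlated with the first at r = 0.99 over the 27 tumors and differed by 1.62 (SE 0.48, adjusted p = 0.0197 over all probe sets). Without non-metastatic tumor 12, the lowest of all, the difference was 1.08 (adjusted p = 0.0247). It was called whichever single tumor was left out, but not with age and tumor size in the model (0.88, adjusted p = 0.204), with the name ending as a block (1.79, adjusted p = 0.389), with the array's upper quartile (1.15, adjusted p = 0.120) or with the myoepithelial and smooth muscle mean (1.55, adjusted p = 0.0635).

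FZD2, a receptor often tied to WNT5A-type signalling, ran between 7.53 and 11.66 with a median of 8.61 in metastatic tumors, and between 5.60 and 9.72 with a median of 7.71 in non-metastatic tumors. The highest value was that of metastatic tumor 1, the lowest 3 were those of non-metastatic tumors 8, 6 and 11, and the groups overlapped between 7.53 and 9.72. The means were 8.95 ± 1.14 in metastatic carcinomas and 7.63 ± 1.27 in non-metastatic carcinomas (SD over 13 and 14 tumors), a log2 shift of 1.31 (SE 0.46, limma adjusted p = 0.0474), with 11 of the 13 metastatic tumors over the median of the other group. This call lay at the threshold. It held when metastatic tumor 10, 12 or 13 or non-metastatic tumor 2, 4 or 13 was left out, and was lost without any other 1 of the tumors, with adjusted p between 0.0263 and 0.0738 and differences between 1.09 and 1.48. It was also lost with age and tumor size (1.17, adjusted p = 0.205), with the name ending as a block (3.01, adjusted p = 0.195) and with the myoepithelial and smooth muscle mean (1.54, adjusted p = 0.142).

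Of the other Frizzled genes, FZD7, a receptor of mammary basal cells in the mouse, had a negative difference at the edge of the threshold. FZD7 ran between 3.32 and 7.39 with a median of 5.91 in metastatic tumors, and between 4.14 and 7.39 with a median of 6.86 in non-metastatic tumors (log2 difference −1.02, SE 0.36, adjusted p = 0.0510). All but metastatic tumor 11 lay below the non-metastatic median. A second FZD7 probe set of similar brightness differed by 0.10, with r = 0.44 between the probe sets, so the 2 readings of this gene disagree. FZD8 averaged 6.03 in metastatic and 6.01 in non-metastatic tumors (difference 0.02, 95% interval −0.57 to 0.62), with a sign that changed under several settings. FZD3, FZD4, FZD5, FZD9 and FZD10 had means under 3.66. FZD10 exceeded it only in metastatic tumor 11 (4.45) and non-metastatic tumor 13 (5.08).

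**Figure D2:**
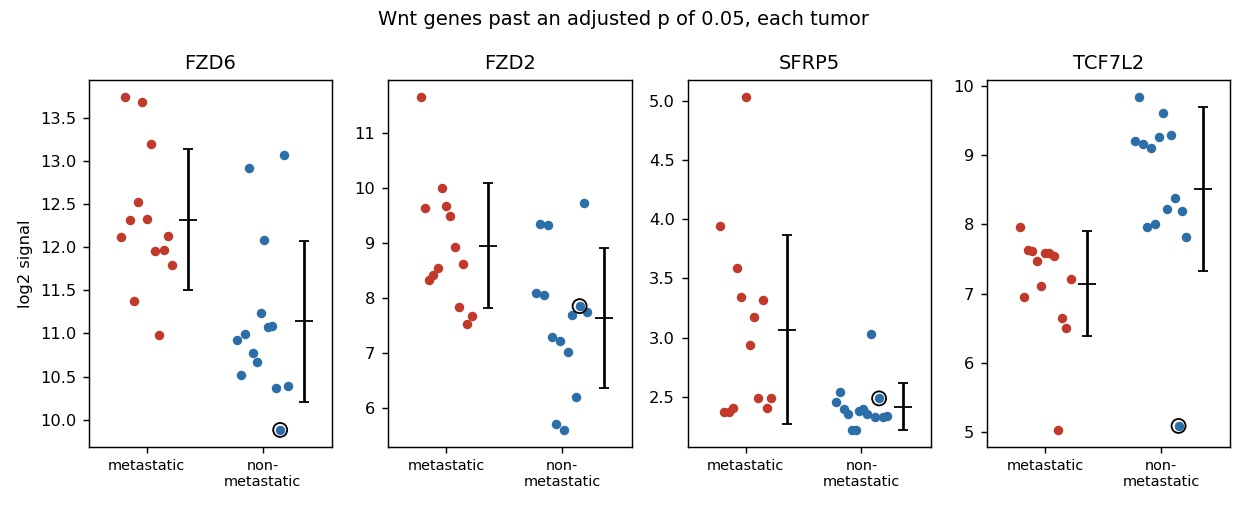
Log2 signal of FZD6, FZD2, SFRP5 and TCF7L2 in each metastatic (red, left) and non-metastatic carcinoma (blue, right), with the mean ± SD of the group. The circled point is non-metastatic tumor 12, which has the lowest FZD6 value (9.88) and whose TCF7L2 value of 5.09 lies apart from the other 13 (at least 7.82).

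Among the SFRP antagonists, SFRP5 passed the test at a low signal, SFRP2 and SFRP4 had larger positive differences with wide spread, and SFRP1 was the only 1 with a negative difference. SFRP5 ran between 2.37 and 5.03 with a median of 2.94 in metastatic tumors, and between 2.22 and 3.03 with a median of 2.37 in non-metastatic tumors. All 13 metastatic tumors exceeded the median of the non-metastatic group, 6 of them above every non-metastatic tumor, and only metastatic tumors 1 and 7 (3.94 and 5.03) were above 3.66. SFRP5 averaged 3.07 ± 0.79 in metastatic carcinomas and 2.42 ± 0.20 in non-metastatic carcinomas (SD over 13 and 14 tumors, log2 difference 0.65, SE 0.21, limma adjusted p = 0.0381). The call was lost without metastatic tumor 1, 5, 6 or 11 or non-metastatic tumor 1, 5, 7, 9 or 13 (adjusted p up to 0.0644). It was also lost with age and tumor size (0.53, adjusted p = 0.169), with the name ending as a block (0.74, adjusted p = 0.560), with the upper quartile (0.76, adjusted p = 0.109) and with the myoepithelial and smooth muscle mean (0.93, adjusted p = 0.0699).

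SFRP2, an antagonist made by fibroblasts in many tissues, was measured at a high level in both groups. It ran between 11.40 and 15.27 with a median of 13.77 in metastatic tumors, and between 7.17 and 14.99 with a median of 12.64 in non-metastatic tumors. The groups overlapped almost fully at the top, where non-metastatic tumor 12 stood at 14.99, whereas 5 non-metastatic tumors (6, 8, 9, 10 and 14) lay below the metastatic minimum. SFRP2 averaged 13.55 ± 1.22 in metastatic carcinomas and 12.02 ± 2.04 in non-metastatic carcinomas (SD over 13 and 14 tumors, log2 difference 1.53, 95% interval 0.21 to 2.85, adjusted p = 0.0957). Without non-metastatic tumor 12 the difference was 1.76 (adjusted p = 0.0484). The 2 other probe sets differed by 1.38 and 1.78.

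SFRP4, a relative of SFRP2 that also binds Wnts, ranged widely and exceeded the array median of 3.66 in 11 of 13 metastatic and 7 of 14 non-metastatic tumors. SFRP4 ran between 3.02 and 11.98 with a median of 4.87 in metastatic tumors, and between 2.77 and 8.01 with a median of 3.66 in non-metastatic tumors. Metastatic tumors 1, 6 and 7 (11.98, 8.82 and 9.27) exceeded all non-metastatic tumors, among which only tumors 6 and 12 (8.01 and 6.00) were above 4.42. The log2 difference was 2.00 (95% interval 0.34 to 3.65, adjusted p = 0.0850), and without non-metastatic tumor 6 it was 2.30 (adjusted p = 0.0413).

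SFRP1, an antagonist often lost in human breast cancer, ran between 2.47 and 8.65 with a median of 6.16 in metastatic tumors, and between 2.51 and 10.46 with a median of 7.75 in non-metastatic tumors. Metastatic tumors 6 and 10 and non-metastatic tumor 12 stood apart at the bottom (2.47, 2.54 and 2.51), and 5 non-metastatic tumors (3, 5, 8, 10 and 14) exceeded every metastatic tumor. The means of 6.19 ± 2.07 in metastatic carcinomas and 7.58 ± 2.06 in non-metastatic carcinomas (SD over 13 and 14 tumors) differed by −1.39 (95% interval −2.99 to 0.21, adjusted p = 0.212). Without non-metastatic tumor 12 the difference was −1.78 (adjusted p = 0.0741).

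**Figure D3:**
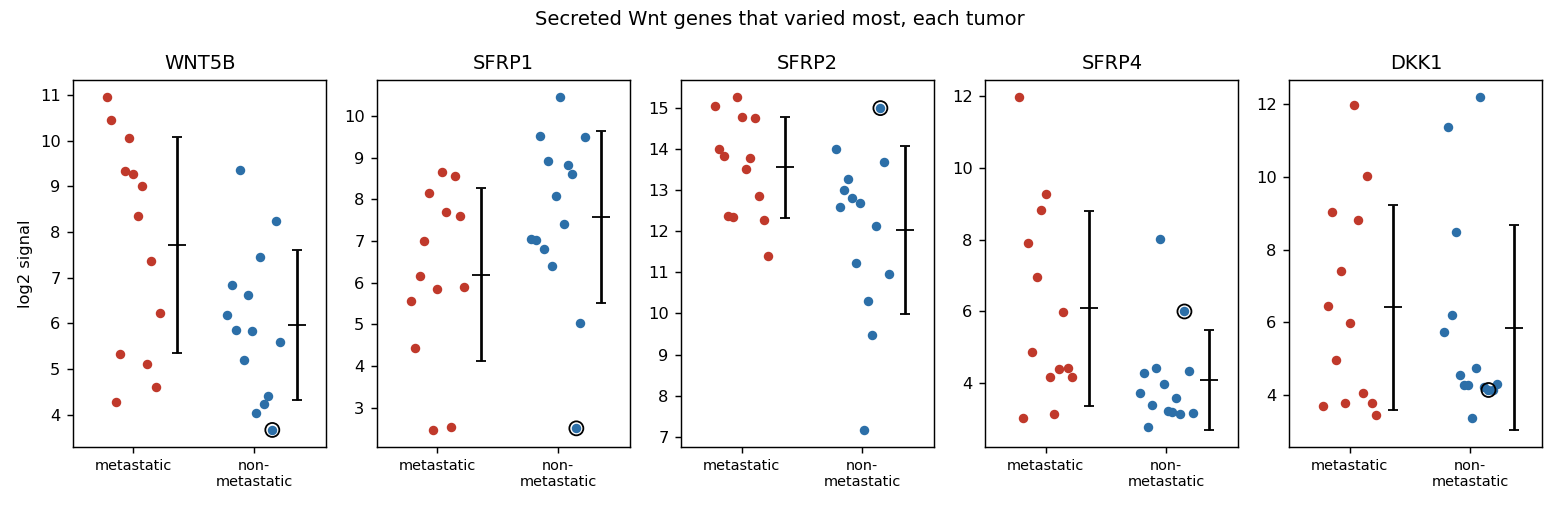
Log2 signal of WNT5B, SFRP1, SFRP2, SFRP4 and DKK1 in each metastatic (red, left) and non-metastatic carcinoma (blue, right), with the mean ± SD of the group and non-metastatic tumor 12 circled. The groups overlap in all 5, none of which passed the test, and SFRP4 reaches 11.98 in metastatic tumor 1.

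None of the 4 DKK genes passed the test. DKK1, which blocks LRP5 and LRP6 and is itself a target of beta-catenin, had the largest spread of all 40 members (SD 2.78 over the 27 tumors). DKK1 ran between 3.46 and 12.00 with a median of 5.99 in metastatic tumors, and between 3.35 and 12.22 with a median of 4.42 in non-metastatic tumors. Both groups held tumors near the bottom and tumors near 12, and the difference of 0.56 had a 95% interval of −1.62 to 2.75 (adjusted p = 0.730). Without metastatic tumor 8 it was 0.10. DKK3, a divergent member of the family, averaged 10.82 ± 1.40 in metastatic carcinomas and 10.14 ± 0.73 in non-metastatic carcinomas (SD over 13 and 14 tumors, difference 0.68, 95% interval −0.18 to 1.53), and 5 metastatic tumors exceeded every non-metastatic tumor. DKK2 differed by 0.39 (95% interval −0.62 to 1.41), and by 0.15 without non-metastatic tumor 8. DKK4 exceeded 3.66 in 1 tumor, metastatic tumor 11 (4.77). Its difference was 0.16 with this tumor and −0.04 without it, and 10 of 13 metastatic tumors lay below the non-metastatic median.

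The co-receptors had negative differences that did not pass the test. LRP6 ran between 5.69 and 8.74 with a median of 6.69 in metastatic tumors, and between 6.91 and 9.55 with a median of 7.44 in non-metastatic tumors. In 9 of 13 metastatic tumors LRP6 was below every non-metastatic tumor, and the other 4 (tumors 1, 2, 4 and 6) lay within the non-metastatic range. LRP6 averaged 6.93 ± 0.92 in metastatic carcinomas and 7.64 ± 0.69 in non-metastatic carcinomas (SD over 13 and 14 tumors, difference −0.71, 95% interval −1.34 to −0.09, adjusted p = 0.103). LRP5 averaged 7.37 ± 0.77 in metastatic and 8.07 ± 1.54 in non-metastatic carcinomas (difference −0.70, 95% interval −1.65 to 0.26, adjusted p = 0.294). Its lowest value was 4.00 in non-metastatic tumor 12, and without that tumor the difference was −1.01 (adjusted p = 0.0453).

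CTNNB1, the gene of beta-catenin, gave a strong and even signal. It averaged 13.07 ± 0.53 in metastatic carcinomas and 12.95 ± 0.52 in non-metastatic carcinomas (SD over 13 and 14 tumors, difference 0.12, 95% interval −0.29 to 0.53, adjusted p = 0.697). Its other probe set differed by −0.53 (adjusted p = 0.146 over all probe sets), with r = 0.56 between them, so the sign of the CTNNB1 difference depends on the probe set. The beta-catenin protein is known to be regulated mainly through its breakdown, which these arrays do not measure. AXIN1, the scaffold of the destruction complex, averaged 6.12 ± 0.83 in metastatic and 5.81 ± 0.21 in non-metastatic carcinomas (difference 0.32, 95% interval −0.14 to 0.78, adjusted p = 0.324). Its spread was unequal, since 3 metastatic tumors lay above and 4 below the whole non-metastatic range of 5.62 to 6.32.

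AXIN2, a scaffold that canonical Wnt signalling itself switches on, varied widely in both groups. It ran between 3.40 and 12.27 with a median of 7.81 in metastatic tumors, and between 3.09 and 10.23 with a median of 8.74 in non-metastatic tumors. The extremes were metastatic tumor 11 at the top, and metastatic tumor 13 and non-metastatic tumor 8 at the bottom. The difference of −0.37 had a 95% interval of −1.91 to 1.18 (adjusted p = 0.752). AXIN2 has 6 probe sets, and the second brightest did not follow the first over the 27 tumors (r = −0.06) and differed by −0.39, so that levels of AXIN2 rest on the choice of probe set.

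TCF7L2, a nuclear partner of beta-catenin, was the member with a lower level in metastatic carcinomas. It ran between 5.03 and 7.96 with a median of 7.47 in metastatic tumors, and between 5.09 and 9.85 with a median of 8.74 in non-metastatic tumors. All 13 metastatic tumors lay below the non-metastatic median, and apart from non-metastatic tumor 12 at 5.09 the groups hardly overlapped, with 12 of 13 metastatic tumors below the other 13 non-metastatic tumors. TCF7L2 averaged 7.14 ± 0.76 in metastatic carcinomas and 8.51 ± 1.19 in non-metastatic carcinomas (SD over 13 and 14 tumors), a log2 shift of −1.37 (SE 0.38, limma adjusted p = 0.0153). Without non-metastatic tumor 12 the difference was −1.63 (adjusted p = 0.00048).

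Dimmer probe sets of TCF7L2 differed by −0.14 (adjusted p = 0.117) and −0.18 (adjusted p = 0.0277 over all probe sets), in the same direction. The first of these dimmer probe sets averaged 3.65 in metastatic and 3.79 in non-metastatic tumors, and the second 3.18 in metastatic and 3.36 in non-metastatic tumors. The TCF7L2 call held whichever single tumor was left out. It was lost with age and tumor size in the model (−1.39, adjusted p = 0.0831), with the name ending as a block (−1.05, adjusted p = 0.603), with the array's upper quartile (−1.44, adjusted p = 0.0876) and with the mean of the myoepithelial and smooth muscle markers, where the difference was −0.45 (adjusted p = 0.529). After group means were removed, TCF7L2 and that marker mean had r = 0.52 and rho = 0.37 (two-sided permutation test, adjusted p = 0.0622 and 0.211 over 120 relations), and r = 0.29 without the 2 tumors of most extreme marker mean. The part of these markers in the lower TCF7L2 was not tested further.

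**Figure D4:**
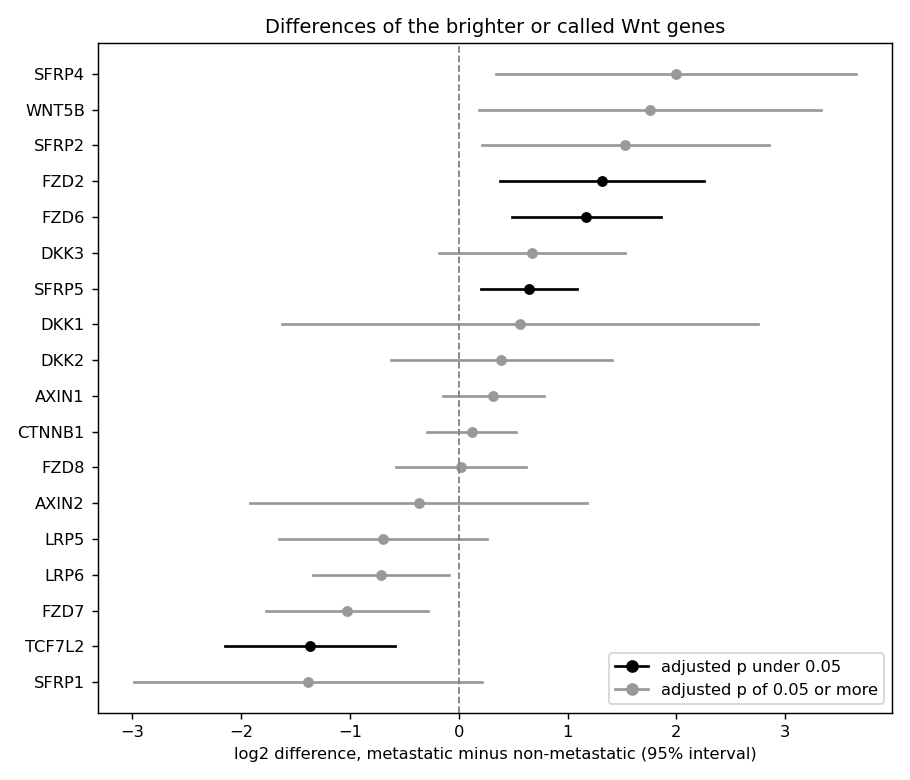
Log2 difference, metastatic minus non-metastatic, with its 95% interval from limma, for the 17 Wnt genes whose mean exceeds the median of all probe sets and for SFRP5. Black marks the 4 genes past an adjusted p of 0.05, FZD2, FZD6, SFRP5 and TCF7L2, and the intervals of SFRP4, WNT5B, SFRP2, LRP6 and FZD7 also leave out 0 before adjustment.

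Several members varied with the fibroblast marker mean within the groups. Each of the 40 members was set against 3 marker means after subtraction of group means (120 relations, two-sided permutation tests over 100000 draws within groups, Benjamini-Hochberg adjusted). SFRP2 and the fibroblast mean, which is built on collagens, DCN, LUM and other matrix genes, had r = 0.84 and rho = 0.82 (adjusted p = 0.0012 for both, the smallest these draws can give), and r = 0.72 without the 2 tumors of most extreme fibroblast mean. For FZD2 these were r = 0.64, rho = 0.64 (adjusted p = 0.0222 and 0.0294) and r = 0.54. SFRP4 had r = 0.54 and rho = 0.55 (adjusted p = 0.0374 and 0.0994), and 0.63 without the extreme tumors. By group, r of SFRP4 was 0.74 in metastatic and only 0.29 in non-metastatic tumors. The relation of AXIN2 (r = 0.60, rho = 0.45, adjusted p = 0.0374 and 0.146) rested on those 2 tumors, without which r was 0.14. With the fibroblast mean in the model, the FZD2 difference was 0.75 (adjusted p = 0.184), that of SFRP5 0.49 (adjusted p = 0.122) and that of SFRP2 0.48 (adjusted p = 0.395), while FZD6 kept 1.21 (adjusted p = 0.0244) and TCF7L2 −1.21 (adjusted p = 0.0421). The fibroblast mean itself ran between −1.94 and 2.56 in metastatic and between −3.87 and 1.24 in non-metastatic tumors, centred on all tumors.

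**Figure D5:**
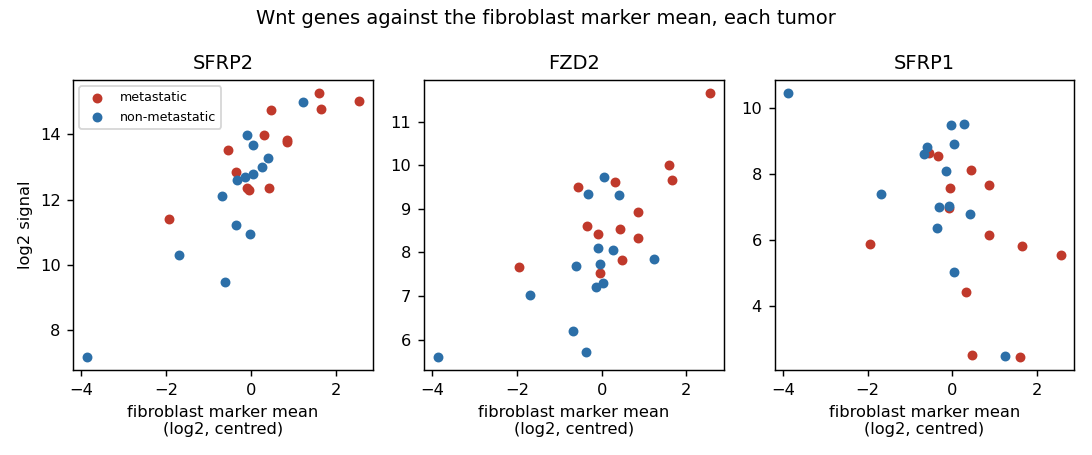
Log2 signal of SFRP2, FZD2 and SFRP1 against the mean of 13 fibroblast markers, each centred over the tumors (log2), in metastatic (red) and non-metastatic carcinomas (blue). SFRP2 and FZD2 lie higher in tumors with more fibroblast signal (r = 0.84 and 0.64 after group means were removed) and SFRP1 lies lower (r = −0.47, rho = −0.48, adjusted p = 0.0768 and 0.146), and the leftmost point is non-metastatic tumor 8.

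The mean of the luminal epithelial markers had negative r with 13 members past the adjusted threshold, 12 of them dim and the other CTNNB1 (r between −0.70 and −0.52). Their r without the 2 most extreme tumors, non-metastatic tumors 12 and 10, lay between −0.49 and −0.31, and no rho passed after adjustment (smallest adjusted p = 0.0873). The array upper quartiles of non-metastatic tumors 12 and 10 were 7.57 and 7.53, near the bottom of all arrays. Relations of other genes to the marker means were not computed. The counts of members for any marker mean thus have no share of all genes beside them. LRP5 had r = 0.54 with the myoepithelial and smooth muscle mean (rho = 0.48, adjusted p = 0.0391 and 0.146), and r = 0.30 without the 2 most extreme tumors. FZD6 had r between −0.05 and 0.24 with the 3 marker means.

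Among the members themselves, the 5 closest pairs of 780 after removal of group means were WNT10B with WNT7A (r = 0.91), WNT10B with WNT2 (0.91), WNT3A with WNT8A (0.91), WNT10B with WNT6 (0.90) and WNT2 with WNT6 (0.89). All are ligands with means under 3.66, and their signals varied little, with an SD over all tumors between 0.04 and 0.07. The highest value of WNT10B, WNT7A, WNT3A, WNT8A and WNT6 was that of non-metastatic tumor 12. For WNT2 that tumor stood at 2.69, near the highest value of 2.71. The r of these close pairs without it was not computed. Within metastatic tumors, which do not include it, their r lay between 0.77 and 0.94. The 3 most opposed pairs were SFRP1 with SFRP2 (r = −0.63), WNT5B with WNT8A (−0.61) and FZD5 with FZD6 (−0.60). WNT8A and FZD5 are dim as well, with means of 2.05 and 1.93 and no value above 3.66. SFRP1 and SFRP2 opposed each other in both groups, with r = −0.62 within metastatic and −0.66 within non-metastatic tumors. Non-metastatic tumor 12 had the lowest non-metastatic value of SFRP1, WNT5B and FZD6 and the highest of SFRP2, WNT8A and FZD5. The r of these opposed pairs without that tumor was not computed, and only the r within metastatic tumors is free of it. In the RefSeq annotation of the dog, 8 of the ligand genes lie next to another member, as WNT3A and WNT9A, WNT10B and WNT1, WNT6 and WNT10A, and WNT9B and WNT3. None of these 4 neighbour pairs was among the 5 closest.

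Histologic grade, size and age of the dog were examined with lymph node status in the model. Grade III against grade II tumors gave 0 of 40 members and 0% of genes (822 genes, or 5.44%, at an unadjusted p of 0.05, among them 1 member, AXIN1). Tumor size gave 0 members and 0.939% of genes, and age 0 members and 0.0595% of genes. At an unadjusted p of 0.05, size included DKK1 (0.40 per cm) and WNT3 (0.04 per cm), and age included AXIN1, FZD7, LRP5 and SFRP5 (0.13, −0.19, −0.29 and 0.14 per year), beside 8.24% and 8.32% of genes. The difference between metastatic and non-metastatic tumors was not distinguishable between grades for any gene after adjustment (2.61% of genes and 0 members at an unadjusted p of 0.05). Within grade III and within grade II the differences were 1.13 and 1.22 for FZD6, 0.97 and 1.79 for FZD2, 0.54 and 0.82 for SFRP5, and −1.26 and −1.52 for TCF7L2, and no member passed within a single grade (adjusted p between 0.148 and 0.360 for these), beside 3.39% of genes called within grade III and 2.45% within grade II. At an unadjusted p of 0.05, 6 members passed within grade III and 6 within grade II, beside 22% and 17.7% of genes. With grade III for non-metastatic tumor 1, again 0 genes were called between grades and no member within a grade, while the genes called numbered 859 within grade III and 112 within grade II. The differences within grade III and within grade II were then 1.15 and 1.16 for FZD6, 0.94 and 1.97 for FZD2, 0.54 and 0.85 for SFRP5, and −1.34 and −1.36 for TCF7L2. In that setting the metastatic difference of 2 members, against 0 by the labels, differed between grades at an unadjusted p of 0.05. The share of all genes in that setting is not given here, and 0 genes passed after adjustment.

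The surrounding pathway is given as lists beside the members, whose calls stand against 10.4% of all genes called higher, 6.83% called lower and 17.3% in either direction. No list was tested against other genes. Of 3 secretion genes, 9 R-spondins, LGR receptors and Frizzled ubiquitin ligases, 5 further co-receptors and 11 further extracellular antagonists, none was called in either direction. Their medians lay between −0.13 and 0.01. NOTUM, a secreted enzyme that removes the lipid of Wnts and is a Wnt target, had a difference of 1.91 that did not pass (adjusted p = 0.0754), with 4.03 ± 2.80 in metastatic carcinomas and 2.12 ± 0.53 in non-metastatic carcinomas (SD over 13 and 14 tumors). Another target, MSX2, had a difference of −1.96 that did not pass either (limma adjusted p = 0.103). Of 29 measured canonical targets, 14 had a positive difference. Of 22 measured genes of Dishevelled and the destruction complex 1 was called, APC2, with a log2 difference of −0.10 and means of 2.01 in metastatic and 2.11 in non-metastatic carcinomas.

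Of 15 measured nuclear partners of beta-catenin 1 was called higher and 3 lower, beside 10.4% and 6.83% of all genes. BCL9L, which bridges beta-catenin to PYGO proteins, averaged 5.52 ± 0.58 in metastatic carcinomas and 6.81 ± 0.83 in non-metastatic carcinomas (SD over 13 and 14 tumors), a log2 shift of −1.29 (SE 0.27, limma adjusted p = 0.00269). PYGO1, a chromatin reader that binds BCL9 proteins, differed by −0.87 (adjusted p = 0.0332) and CHD8, a chromatin remodeler that represses beta-catenin targets, by −0.47 (adjusted p = 0.0334). TBL1XR1, a corepressor exchange factor, was higher by 0.70 (adjusted p = 0.0212). Of 16 planar polarity genes RAC1, a small GTPase, was higher by 0.24 and INTU lower by a difference of −0.13, where metastatic carcinomas averaged 2.76 and non-metastatic carcinomas 2.89, both under the array median of 3.66. These are 1 gene in each direction, beside the same shares of all genes. Of 29 canonical targets none was higher and EPHB3, a receptor of ephrin B ligands, was lower (−1.05, adjusted p = 0.0122), and the median of these targets was −0.01, beside 10.4% of all genes called higher and 6.83% called lower.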

How the data were processed

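RNA of 27 canine mammary carcinomas was hybridized to Affymetrix arrays, 1 per tumor. Normalization by the authors used gcRMA in Partek Genomic Suite 6.4, and the deposited log2 values were used without further scaling (0.29 to 16.61, median 3.66). After removal of 175 controls from 43035 probe sets, 42860 remained, of which the platform annotation gives 29254 a single gene symbol, 439 several and 13167 none. Values contain no counts, so the number of arrays limits the precision. Lymph node status and grade were taken from the sample labels.

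Tests used limma (version 3.58.1, R 4.3.3; lmFit and eBayes) over 15115 genes, taking for each gene the probe set whose mean was highest, with Benjamini-Hochberg adjustment and a threshold of 0.05. In simulated data for the comparison of metastatic with non-metastatic tumors over 15115 genes, 79 of 100 genes with a log2 change of 1 and 89 of 100 with a log2 change of 2 passed the threshold, as did 10 unchanged genes. The changed genes were drawn at random from all genes, bright or dim. Noise was normal, with the SD of each gene, and independent between genes, unlike in real arrays. These shares are therefore not the power for members of large SD, such as WNT5B or SFRP4. Grade, tumor size and age were tested with lymph node status as a covariate. Relations to the luminal, the myoepithelial and smooth muscle, and the fibroblast marker means were tested with 100000 permutations within groups. The Wnt genes, pathway lists and markers were chosen with earlier results of these data known. Values are given for members past the threshold, for LRP5, LRP6, CTNNB1, AXIN1, AXIN2 and TCF7L2, for the 5 members of highest mean and the 5 of largest SD. Other members are given by ranges and counts or with values where they illustrate a group, and pathway genes where called, up to 4 per direction, with NOTUM and MSX2 added after their values were seen. Single tumors were omitted 1 at a time, and alternatives were tried for scaling, the test, weights of arrays, the choice of probe set, a brightness filter, the thresholds, and covariates (grade, age with size, name ending, upper quartile, 2 marker means). All 40 symbols matched the RefSeq table of assembly UU_Cfam_GSD_1.0, which was used only for neighbouring genes. Promoter motifs were not searched. Figures came from matplotlib 3.10.9 (Python 3.11.15).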

Additional observations from a re-analysis of the deposited data

How the results depend on the processing

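The main comparison called 1578 genes higher and 1033 lower. Genes higher numbered 963 after a second quantile normalization, 464 with age and size as covariates, 10 with the name ending as a block, 440 with the upper quartile, 87 with the myoepithelial and smooth muscle mean, and 76 at a stricter threshold (adjusted p under 0.001, fold over 1.7). Genes lower numbered 628 after median centring, 580 among probe sets above median brightness, 170 with age and size, 0 with the name ending, 408 with the upper quartile, 71 with the myoepithelial and smooth muscle mean, and 46 at the stricter threshold. The share of calls that were higher was 60.4% as deposited, 50.7% after a second quantile normalization and 74.3% after median centring. For size, 142 genes became 605 without lymph node status in the model, 89 after median centring and 0 with log2 of size, and for age 9 genes became 1 after median centring. Of the Wnt members, the 3 higher became 0 with age and size, the name ending, the myoepithelial mean and the stricter threshold, and 1 with the upper quartile or the fibroblast mean. The 1 lower member became 4 with array weights (FZD7, LRP6 and SFRP1 added), 2 after a second quantile normalization, among brighter probe sets and with the probe set of largest variance (FZD7 added in each), and 0 with age and size, the name ending, the myoepithelial mean and the stricter threshold. FZD2 was not called by an ordinary t-test with Benjamini-Hochberg adjustment (adjusted p = 0.0510), after a second quantile normalization (0.108) or with grade as a covariate (0.0559, and 0.0597 with grade III for non-metastatic tumor 1, a setting added after the data were seen), and WNT4 was called with the upper quartile (−0.82, adjusted p = 0.0438). Leaving out 1 tumor gave 1327 to 1736 genes higher, 763 to 1159 lower, and 1 to 3 members in each direction. Calls were gained for FZD7 without metastatic tumor 2, 9 or 11 or non-metastatic tumor 2 or 8, for LRP6 without metastatic tumor 1 or 2, for WNT11 without non-metastatic tumor 5, 6, 8 or 11, for LRP5 and SFRP2 without non-metastatic tumor 12, and for SFRP4 without non-metastatic tumor 6.

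Members not called in the main comparison changed sign as follows. AXIN2 was 0.11 with the name ending, 0.30 with the myoepithelial mean and, with 1 tumor left out, −0.76 to 0.0037 (positive only without metastatic tumor 13). CTNNB1 was −0.20 over all its probe sets, −0.53 with the probe set of largest variance and −0.23 with the name ending. With the name ending DKK1 was −0.79, DKK2 −0.30 and LRP6 0.96. FZD8 was −0.022 with array weights, −0.020 with grade, −0.13 after quantile normalization, −0.31 with age and size, −0.15 with the name ending, −0.20 with the upper quartile, −0.51 with the myoepithelial mean, and −0.12 to 0.16 when 1 tumor was left out. LRP5 was 0.012 with age and size and 0.47 with the myoepithelial mean, and WNT11 was 0.080 over all its probe sets, 0.32 with the probe set of largest variance and 0.033 with the upper quartile. The WNT11 values of 0.080 and 0.32 include the single high value of 6.69 in metastatic tumor 7. SFRP5, WNT4 and WNT11, which also have means under 3.66, were each called in at least 1 setting and are left out of the next count. Of the other 20 dim members none was called under any alternative, and 107 of 780 values had another sign, all within 0.29. The absence of calls among these 20 thus depends on that split. The causes were not tested. The name ending leaves 2 metastatic tumors, 1 and 2, beside the 14 non-metastatic tumors, so that it and lymph node status can hardly be told apart. No paired analysis was possible because the tumors come from different dogs and the labels give no replicate numbers.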
